A study of Rattus norvegicus with 52 samples.

Results

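The mammary luminal cells of wild-type ACI rats were compared between 6 and 4 weeks of age. The comparison held 5 RNA-seq libraries of the 52 samples in the series, chosen by their labels alone, with 2 libraries of 6 weeks and 3 of 4 weeks. All came from female Cdkn1b+/+ animals and were sorted as Cd24+ Cd29LOW cells. ACI is an inbred rat strain used for oestrogen-induced mammary cancer, and Cdkn1b encodes the CDK inhibitor p27. The wild-type rats came from heterozygous crosses of genome-edited Cdkn1b lines, and both ages are labelled prepubertal. The edits were made in outbred Sprague-Dawley rats and then backcrossed to ACI. The paper sorted cells from crosses of an early and a later backcross generation. Which generation gave each library is not stated in the sources used here, so it cannot be told apart from age. The sample titles carry the finer ages 3.4, 4 and 4 weeks for replicates 1, 2 and 3 of the younger group and 5.9 weeks for both replicates of the older group. The labels do not tie a library to 1 animal. Luminal libraries of Cdkn1b-/- rats labelled 4 weeks (3) and 6 weeks (2), and wild-type basal libraries (3 and 3) of these ages, are given beside the results. Titles of the Cdkn1b-/- luminal libraries carry 4 weeks for the younger group and 5.3 and 5.9 weeks for replicates 1 and 2 of the older. Wild-type basal titles carry the same finer ages as the wild-type luminal ones. The age span thus differed between the genotypes, and the part of this was not tested.

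The luminal layer lines the mammary ducts and holds hormone-sensing cells, which carry the oestrogen and progesterone receptors, and progenitor cells that can form milk-secreting alveoli. Ovarian hormones drive the growth of the ducts at puberty, in part through amphiregulin, a ligand of the epidermal growth factor receptor. Immediate early genes such as Fos and Egr1 answer quickly to growth factors, and also to the dissociation of tissue. Atf4 raises enzymes of amino acid synthesis under amino acid shortage or unfolded protein, and Nrf2 raises enzymes that defend against oxidants.

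The libraries held 16604944 to 23045345 gene counts at 4 weeks and 9890608 and 13145216 at 6 weeks. Reads outside annotated genes made up 9.92 to 13.2% of all reads counted at 4 weeks and 33.1 and 19.5% at 6 weeks. Of uniquely placed reads alone they made up 19.6 to 23.6% and 51.8 and 39.7%. After thinning to 9890608 gene counts, 12030 to 12470 genes had a count at 4 weeks and 10956 and 11494 at 6 weeks. Depth and the share of reads outside genes thus moved with age, and the part of that share in the differences was not tested. The labels name no preparation batch, so a batch that followed age cannot be told apart from age. All 10 fixed luminal markers had counts in all 5 libraries and summed to 17612 to 32320 CPM (gene counts scaled to library size), so the libraries carried the markers of their label. The 9 fixed basal markers summed to 242, 132 and 146 CPM at 4 weeks and to 334 and 237 CPM at 6 weeks, against 5594 to 14933 CPM in the 6 wild-type basal libraries. Krt17 made up most of each luminal sum, at 166, 68.4 and 94.6 CPM and at 296 and 204 CPM. Of the others, Krt5, Acta2, Mylk, Oxtr and Cdh3 were lower in both older libraries, and Krt14, Myh11 and Cnn1 overlapped. The longer list of basal and myoepithelial markers summed to 617, 862 and 812 CPM at 4 weeks and to 2295 and 1032 CPM at 6 weeks, above the younger group in both older libraries. Of its 20 genes tested, 12 had a negative log2 fold change of 6 against 4 weeks and 8 a positive one. The part of basal cells in the results was not tested.

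Markers of fibroblasts, adipocytes and myeloid cells summed to less at 6 weeks than at 4 weeks. The 18 fibroblast markers in the files, of 20, summed to 136, 240.1 and 445 CPM at 4 weeks and to 41.2 and 43.1 CPM at 6 weeks, with Col1a2 at 0 in all 5. The 14 adipocyte markers summed to 308, 443 and 417 CPM and to 93.0 and 181 CPM, mostly Lpl, with Adipoq at most 0.259 CPM. The 18 myeloid markers of 19 summed to 894, 784 and 613 CPM and to 131 and 235 CPM, nearly all of it Cd14, which luminal progenitors also express. Cd68, another of these markers, overlapped between the ages. Mpo and Elane, genes of myeloid precursors outside this list and chosen after their values were seen, went the other way. They held 0 and 2 counts at 4 weeks and 544 and 581 at 6 weeks. The 18 endothelial markers summed to 72.8, 138 and 180.5 CPM and to 61.0 and 96.3 CPM, and the 16 lymphoid markers of 19 to at most 14.0 CPM. The 9 red cell markers in the files, of 11, summed to 0.917, 0.209 and 0.115 CPM at 4 weeks and to 7.50 and 0.146 CPM at 6 weeks. Hba1 and Hbb were at 0 in all 5, and Alas2 read 6.64 CPM in replicate 1 of 6 weeks. The part of other cells in the age differences was not tested.

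One Cdkn1b-/- library of the main test stood apart, replicate 2 of the 6-week luminal group. Of its reads 57.0% were not placed uniquely, 9241 genes had a count, and its adipocyte markers summed to 9177 CPM against 93.0 to 476 CPM in the other 9 luminal libraries of these ages. Its fibroblast and endothelial markers summed to 4338 and 3593 CPM.

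With edgeR's quasi-likelihood test over the 10 luminal libraries, 86 genes were higher and 124 were lower at 6 weeks in wild-type luminal cells (adjusted p under 0.05). These were 1.85% of the 11355 genes tested (0.757% higher, 1.09% lower), and 2366 genes had an unadjusted p under 0.05. For all 210 called genes both libraries of 6 weeks lay outside the range of the 3 libraries of 4 weeks. Such separation was common, since 21.6% of the genes tested lay wholly above and 32.8% wholly below. Where ages are said below not to overlap, these shares apply, and the separation is not a test. The median log2 fold change over all genes was -0.07, and 5908 of the 11355 had a negative value. Without the library that stood apart, 763 genes were called higher and 1048 lower (6.4% and 8.79% of 11925), the 210 genes among them in the same direction, and the common dispersion was 0.223 in place of 0.402. With that library kept, leaving out any 1 of the libraries of 4 weeks, or replicate 1 of 6 weeks, left 0 calls, and leaving out replicate 2 of 6 weeks left 357. Without that library and 1 wild-type library, 561 to 2964 genes were called, and the 5 wild-type luminal libraries alone gave 708 higher and 806 lower (6.41% and 7.3% of 11048). Adjusted p-values below are from the 10 libraries unless stated otherwise.

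**Figure D1:**
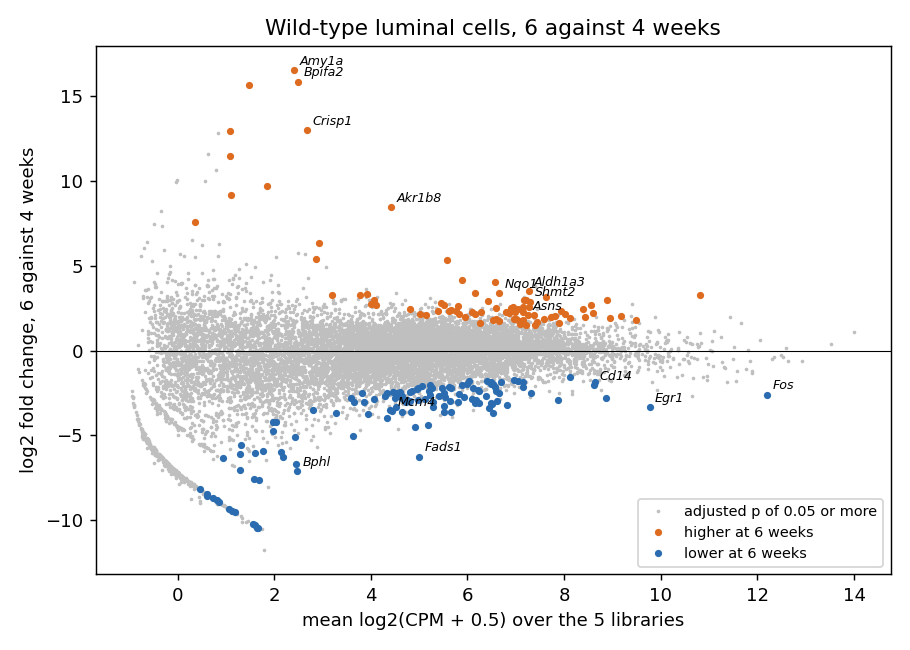
Each point is 1 of the 11355 genes tested, with the mean log2(CPM + 0.5) over the 5 wild-type luminal libraries on the x axis and the log2 fold change of 6 against 4 weeks on the y axis. The 86 orange genes were higher and the 124 blue genes lower at 6 weeks. The curved edge at the lower left holds genes without counts at 6 weeks, whose fitted size depends on the prior count.

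Akr1b8, an aldo-keto reductase, had the largest rise among the named genes with at least 10 counts in every wild-type luminal library. Its level was 2.14, 1.47 and 2.49 CPM at 4 weeks and 1065 and 269.8 CPM at 6 weeks, a log2 fold change of 8.47 ± 0.82 (SE, n = 2 against 3, adjusted p = 0.00681). Replicate 1 was the higher of the older libraries, and both lay far above the younger ones. The wild-type basal libraries read 1.05, 0.859 and 0.258 CPM at 4 weeks and 421, 219 and 294 CPM at 6 weeks. In the Cdkn1b-/- luminal libraries the values were 1.77, 3.88 and 3.34 CPM and then 16.3 and 3.89 CPM. All 5 wild-type libraries of 6 weeks were thus high, and every other luminal or basal library of these ages was at or below 16.3 CPM.

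Nqo1, a quinone reductase and a known target of Nrf2, rose from 42.2, 36.3 and 44.5 CPM to 527 and 274 CPM (10.6-fold, adjusted p = 0.0219). In wild-type basal cells it rose by 5.61 on the log2 scale (adjusted p = 1.56e-05), to 1193 to 2020 CPM. The Cdkn1b-/- luminal libraries held 41.7 to 89.5 CPM at 4 weeks and 28.8 and 47.8 CPM at 6 weeks. Of 24 tested genes of the Nrf2 and glutathione list, Nqo1 was the 1 called higher and 0 were called lower, with a median log2 fold change of 0.29. Without the library that stood apart 8 were called higher and 3 lower, the glutathione transferases Gsta1, Gstm1 and Gstm2. In that fit 6.4% of all genes were called higher and 8.79% lower. In basal cells 11 were higher and 1 lower of 24, beside 4.82% and 5.68% of all genes.

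Other members of the list did not pass the test with the 10 libraries. Hmox1, the haem oxygenase, stood at 2541, 1355 and 1228 CPM at 4 weeks and at 4753 and 8096 CPM at 6 weeks (adjusted p = 0.0625, and 0.0197 without the library that stood apart). Gclm, which modifies the enzyme that starts glutathione synthesis, stood at 86.6, 48.3 and 50.0 CPM and at 205 and 298 CPM (adjusted p = 0.202, and 0.00716 without it). The catalytic subunit of that enzyme, Gclc, read 123 to 219.7 CPM and 467 and 295 CPM (adjusted p = 0.125, and 0.0553 without it). In all 3 genes the older libraries lay above the younger, as in 21.6% of all genes tested.

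**Figure D2:**
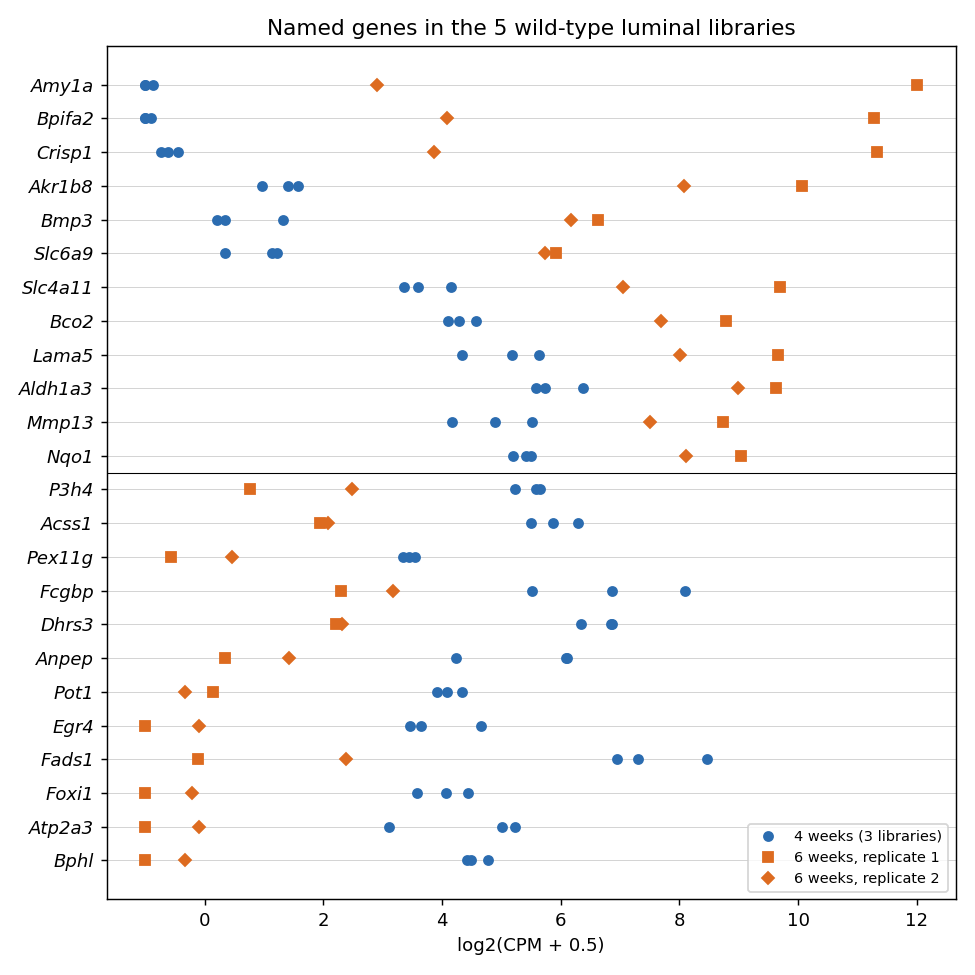
Log2(CPM + 0.5), on the x axis, of the 24 genes with the largest called differences, in each of the 5 wild-type luminal libraries. Blue circles are the 3 libraries of 4 weeks, orange squares and diamonds are replicates 1 and 2 of 6 weeks, and the ages overlap in no gene shown. Amy1a, Bpifa2 and Crisp1 show the widest gap between the 2 older libraries.

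In the Atf4 and unfolded protein response list, 3 of 24 tested genes were called higher and 0 lower, and the median log2 fold change was 0.71 against -0.07 over all genes. Shmt2, which makes glycine from serine in mitochondria, rose from 71.5, 70.2 and 76.2 CPM to 587 and 413 CPM (7.42-fold, adjusted p = 0.0219). Asns, the asparagine synthetase, rose from 89.5, 89.2 and 81.9 CPM to 375 and 321 CPM (4.31-fold, adjusted p = 0.0226). Trib3, a pseudokinase that Atf4 switches on, rose from 40.8, 29.0 and 41.1 CPM to 168 and 172 CPM (4.93-fold, adjusted p = 0.028). The replicates of each age lay close together in these 3 genes, and the ages were well apart.

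Without the library that stood apart, 7 of the list were called higher, with Mthfd2, Psat1, Slc7a11 and Chac1 added, and Xbp1 lower. Over all genes that fit called 6.4% higher and 8.79% lower. Mthfd2, the mitochondrial folate enzyme, read 18.2, 16.0 and 22.0 CPM and then 161 and 90.2 CPM. Atf4 itself, which is regulated largely at translation, stood at 1318, 1248 and 1408 CPM and at 1159 and 1402 CPM (log2 fold change 0.05 ± 0.39, SE), and Ddit3 (Chop) at 108, 60.7 and 70.1 CPM and 90.2 and 118 CPM. Neither passed the test, and the ages overlapped in both. In wild-type basal cells the log2 fold changes of Shmt2, Asns and Trib3 were 2.64, 2.32 and 2.87 (adjusted p = 0.000972, 0.000641 and 0.00165). There 7 of 24 listed genes were called higher and 0 lower, beside 4.82% higher and 5.68% lower of all genes. In the Cdkn1b-/- luminal cells the same 3 genes gave 0.53, -0.18 and -1.85, none called.

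The promoter of Trib3 is shown because it is the called gene of this list whose window holds the element that Atf4 binds with C/EBP proteins. The 250 bases before its annotated start (RefSeq, GRCr8, chr3:161275534-161275783, minus strand), with the match to TGATGNAA on either strand in capitals, read:
Trib3: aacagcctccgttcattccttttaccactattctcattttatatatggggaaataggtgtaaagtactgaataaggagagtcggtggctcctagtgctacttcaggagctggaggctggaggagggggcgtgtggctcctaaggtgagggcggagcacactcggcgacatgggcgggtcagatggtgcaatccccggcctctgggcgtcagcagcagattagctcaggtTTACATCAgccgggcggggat
The match begins 21 bases before the start. Of the 23 tested members of the list with a promoter in the RefSeq table, Trib3, Chac1 and Herpud1 held a match (3, or 13%), against 3.27% of 27457 promoters and 1.75% of the 8674 tested genes that have one. Over all genes called higher 1 of 67 promoters held a match (1.49%), and over those called lower 0 of 95, so matches were not more frequent among called genes. The windows of Asns and Shmt2 hold no match to these letters. A match describes the sequence and is not a measured binding site.

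Several genes of transport, matrix and secretion were among those with the largest rise. Bmp3, a secreted antagonist of bone morphogenetic proteins, rose from 0.764, 1.99 and 0.652 CPM to 98.5 and 72.0 CPM (log2 fold change 6.34 ± 1.14, SE, adjusted p = 0.0262). Slc6a9, a glycine transporter, rose from 0.764, 1.83 and 1.69 CPM to 60.2 and 53.0 CPM (adjusted p = 0.0475). Slc4a11, an ion transporter of the plasma membrane, rose from 11.6, 9.79 and 17.4 CPM to 830.0 and 132 CPM (adjusted p = 0.041). The older libraries agreed closely for Slc6a9 and stood far apart for Slc4a11.

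Bco2, which cleaves carotenoids, rose from 16.8, 19.1 and 23.3 CPM to 441 and 206 CPM (17.7-fold, adjusted p = 0.0219). Lama5, a laminin chain of the basement membrane, rose from 19.8, 48.9 and 35.8 CPM to 809 and 257 CPM (16.7-fold, adjusted p = 0.0279). Mmp13, a collagenase, rose from 45.5, 17.5 and 29.3 CPM to 423 and 181 CPM (10.6-fold, adjusted p = 0.0226). In all of these genes both libraries of 6 weeks lay above every library of 4 weeks, with replicate 1 the higher. In wild-type basal cells Slc6a9 was also called higher (4.08 on the log2 scale, adjusted p = 0.00734), whereas Bmp3 read 0.502, 0.556 and 0.0516 CPM at 4 weeks and 0 in all 3 libraries of 6 weeks.

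The remaining genes with the largest rise are known from salivary and other exocrine glands, namely Amy1a (salivary amylase), Bpifa2 (parotid secretory protein) and Crisp1 (a cysteine-rich secretory protein). The 3 libraries of 4 weeks held 1 count of Amy1a, 1 of Bpifa2 and 11 of Crisp1 in all, so that no fold change is given for the first pair. At 6 weeks Amy1a stood at 4094 and 6.96 CPM, Bpifa2 at 2480 and 16.4 CPM and Crisp1 at 2573 and 14.1 CPM in replicates 1 and 2. The genes were called (adjusted p = 0.0226, 0.0388 and 0.0224), and nearly all of the signal lay in replicate 1. In the wild-type basal libraries of 6 weeks Amy1a read 135, 4.92 and 154 CPM, and in those of 4 weeks at most 0.0506 CPM. The Cdkn1b-/- luminal libraries of 6 weeks read 13.7 and 0.852 CPM of Amy1a and 19.9 and 0 CPM of Bpifa2. Those of 4 weeks read at most 0.0497 CPM of Amy1a and 0 of Bpifa2. The part of other tissue in these values was not tested.

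Among the genes that were lower, Fads1, a desaturase of long-chain fatty acids, fell from 123, 352 and 158 CPM to 0.431 and 4.69 CPM (log2 fold change -6.26 ± 1.06, SE, adjusted p = 0.0226). Dhrs3, which turns retinaldehyde back into retinol, fell from 116, 115 and 80.1 CPM to 4.14 and 4.47 CPM (22.4-fold lower, adjusted p = 0.0219). Anpep, an aminopeptidase of the cell surface, fell from 18.3, 68.3 and 67.2 CPM to 0.776 and 2.20 CPM (adjusted p = 0.0226). The ages were far apart in each. In wild-type basal cells Fads1 and Dhrs3 also fell, by 3.17 and 3.38 on the log2 scale (adjusted p = 0.0147 and 0.000991).

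Acss1, a mitochondrial acetyl-CoA synthetase, fell from 44.5, 77.3 and 57.9 CPM to 3.36 and 3.73 CPM (15.7-fold lower, adjusted p = 0.0394). Fcgbp, a mucus protein that binds IgG, fell from 45.4, 272 and 116 CPM to 4.40 and 8.49 CPM (adjusted p = 0.0388). P3h4, a partner of collagen-modifying enzymes, fell from 37.0, 50.0 and 47.7 CPM to 1.21 and 5.13 CPM (adjusted p = 0.0262). The younger libraries of Fcgbp differed widely and still lay above both older ones.

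The other 6 genes with the largest fall were at the edge of detection at 6 weeks. Foxi1, a forkhead factor of ion-transporting epithelial cells, fell from 21.3, 16.3 and 11.5 CPM to 0 and 0.366 CPM (adjusted p = 0.0385). Atp2a3, a calcium pump of the endoplasmic reticulum, fell from 8.15, 37.1 and 31.9 CPM to 0 and 0.439 CPM (adjusted p = 0.0499). Bphl, a hydrolase, and Egr4, a relative of Egr1, fell from 21.0 to 26.9 and 10.5 to 24.6 CPM to at most 0.293 and 0.439 CPM (adjusted p = 0.0224 and 0.0499). In these 4 genes the libraries of 6 weeks held 4 to 6 counts in all, every one of them in replicate 2. Pot1, which protects telomeres, and Pex11g, of peroxisomes, fell from 14.5 to 19.7 and 9.70 to 11.2 CPM to at most 0.604 and 0.879 CPM (adjusted p = 0.0226 and 0.0475). A further 13 genes called lower had no count in either library of 6 weeks.

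Genes of cell division had negative values as a rule and few calls. Of 38 tested genes of the G1 and S phase list 34 had a negative log2 fold change, beside 5908 of all 11355 genes. The median of the list was -1.80, 1 was called lower and 1 higher. Mcm4, a subunit of the replicative helicase, fell from 31.7, 75.2 and 89.1 CPM to 1.98 and 8.27 CPM (adjusted p = 0.0475). Mcm2, of the same helicase, read 33.7, 84.2 and 91.7 CPM and then 1.03 and 14.4 CPM (adjusted p = 0.114). Cdk6, a partner of the D cyclins, rose from 17.4, 18.3 and 17.7 CPM to 68.1 and 82.7 CPM (4.54-fold, adjusted p = 0.0499). In none of these 3 genes did the ages overlap.

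Without the library that stood apart, 16 of the G1 and S phase genes were called lower, among them Mcm2, Mcm3, Mcm5, Mcm6, Tk1, Rrm2 and Ccne1, and Cdk6 was the 1 called higher. Of 41 tested G2 and M phase genes 0 were called with the 10 libraries (median -1.40), and 8 were called lower and 1 higher without it. In that fit 8.79% of all genes were called lower and 6.4% higher. Mki67, the proliferation marker, stood at 3.87, 11.9 and 15.8 CPM and at 2.33 and 3.30 CPM (adjusted p = 0.264), and Cdk1 at 5.96, 11.4 and 15.0 CPM and 2.07 and 5.05 CPM (adjusted p = 0.364). Among wild-type basal cells 4 of 38 G1 and S phase genes were called lower and 0 higher, beside 5.68% and 4.82% of all genes.

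Cdkn1b itself was measured at 18.5, 15.4 and 13.8 CPM at 4 weeks and at 39.5 and 30.2 CPM at 6 weeks. The ages did not overlap, and the 2.36-fold difference did not pass the test (adjusted p = 0.338, and 0.121 without the library that stood apart). The Cdkn1b-/- luminal libraries still held 17.1, 4.77 and 11.0 CPM and 10.1 and 34.1 CPM, so its level does not check their labels. Of 15 tested genes of CDK inhibition and G1 arrest 1 was called lower and 0 higher (median -0.46). This was Tob1, an antiproliferative factor, which fell from 229, 183 and 177 CPM to 22.3 and 49.5 CPM (5.14-fold lower, adjusted p = 0.041). Cdkn1a (p21) read 42.2 to 60.2 CPM and then 57.4 and 95.9 CPM, with overlap.

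Immediate early genes held 2 calls of 28, both lower, with 21 negative values and a median of -1.25. Egr1, a zinc finger factor induced by growth factors, fell from 2247, 2636 and 2155 CPM to 125 and 314 CPM (10.0-fold lower, adjusted p = 0.0224). Fos, a subunit of AP-1, fell from 12878, 8288 and 9114 CPM to 1812 and 1314 CPM (6.00-fold lower, adjusted p = 0.0417). Jun, its partner, stood at 5158, 4561 and 5049 CPM and at 2502 and 1733 CPM (adjusted p = 0.173). In none of the 3 did an older library reach a younger one.

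Once the library that stood apart was left out, 10 of the 28 were called lower, Egr2, Nr4a1 and Jund included, and Fosl1 was called higher. The shares of all genes called in that fit were 8.79% lower and 6.4% higher. Fosl1, a Fos relative, read 643, 245 and 347 CPM and then 1446 and 1726 CPM (adjusted p = 0.0531 with the 10 libraries). Of the same list in basal cells 15 were called lower and 1 higher, beside 5.68% and 4.82% of all genes. In the Cdkn1b-/- luminal libraries Fos stood at 13290, 12490 and 7578 CPM and at 3571 and 2156 CPM (log2 fold change -1.93, adjusted p = 0.326).

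The promoter of Egr1 is shown for the serum response elements it is known for, whose core is the CArG box. The 250 bases before its annotated start (RefSeq, GRCr8, chr18:26736828-26737077, plus strand), with CArG boxes on either strand in capitals, read:
Egr1: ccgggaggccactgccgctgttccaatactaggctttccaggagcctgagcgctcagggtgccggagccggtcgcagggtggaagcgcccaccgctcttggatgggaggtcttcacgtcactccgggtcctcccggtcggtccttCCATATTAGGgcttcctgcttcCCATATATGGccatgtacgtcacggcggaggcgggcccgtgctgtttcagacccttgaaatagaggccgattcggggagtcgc
The 2 matches begin 105 and 83 bases before the start. Of 18 tested immediate early genes with a RefSeq promoter here, 4 held a CArG box (Egr1, Egr2, Klf6 and Zfp36, 22.2%), against 1.5% of 27457 promoters and 1.19% of the 8674 tested genes. Over all genes called lower 2 of 95 promoters held one (2.11%), and over those called higher 0 of 67. The counts were made on rn6, so the GRCr8 positions locate the sequence only.

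Genes of mitochondrial respiration mostly had negative values. Of 68 tested subunits of oxidative phosphorylation 62 did, with a median of -0.63, and 1 was called lower and 0 higher. Atp5a1, the alpha subunit of ATP synthase, fell from 681, 729.9 and 652 CPM to 139 and 219 CPM (3.59-fold lower, adjusted p = 0.0499). Atp5b, its beta subunit, stood at 1631 to 1769 CPM and at 768 and 1068 CPM (adjusted p = 0.265). Leaving out the library that stood apart, 8 of 69 were called lower, Sdha and Uqcrc2 among them, near the 8.79% of all genes called lower in that fit. Of 76 cytosolic ribosomal proteins 0 were called in either fit, with a median of 0.20.

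In the cholesterol and fatty acid synthesis list 31 of 34 tested genes had a negative value (median -1.22), and Fads1 and Thrsp were the 2 called lower, with 0 higher. Thrsp, a regulator of fat synthesis, fell from 314, 297 and 131 CPM to 11.1 and 34.1 CPM (10.3-fold lower, adjusted p = 0.0308). Fasn, the fatty acid synthase, read 145, 710.0 and 341 CPM and then 106 and 143 CPM (adjusted p = 0.211), without overlap. Hmgcs1, of cholesterol synthesis, read 187 to 278 CPM and then 82.2 and 74.4 CPM (adjusted p = 0.221, and 0.0394 without the library that stood apart).

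Of 21 tested genes of milk proteins and milk fat 17 had a negative value, the median was -2.14, and 1 was called lower and 0 higher. Xdh, needed to secrete milk fat, fell from 114, 578 and 217 CPM to 14.7 and 29.8 CPM (12.7-fold lower, adjusted p = 0.041). Lalba, the alpha-lactalbumin of lactose synthesis, stood at 3123, 4526 and 3332 CPM and at 263 and 828 CPM (adjusted p = 0.113, and 0.0272 without the library that stood apart). Wap, the whey acidic protein, stood at 26.1 to 56.9 CPM and at 0 and 11.6 CPM (adjusted p = 0.355). In all 3 genes the older libraries lay below the younger, as in 32.8% of all genes tested. In the Cdkn1b-/- luminal cells the list's median was 0.53, and Lalba stood at 4155 to 15636 CPM at 4 weeks and at 4656 and 16886 CPM at 6 weeks.

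Genes of luminal identity were divided. Of 22 tested genes of luminal progenitor and alveolar identity 1 was called higher and 1 lower (median -1.10). Aldh1a3, a retinaldehyde dehydrogenase used as a progenitor mark, rose from 82.9, 47.4 and 52.9 CPM to 788 and 508 CPM (11.4-fold, adjusted p = 0.0461). Cd14, an endotoxin co-receptor, fell from 879, 719 and 567 CPM to 122 and 211 CPM (4.07-fold lower, adjusted p = 0.0499). Kit, the progenitor receptor, read 111, 346 and 174 CPM and then 35.9 and 58.1 CPM (adjusted p = 0.201), and Elf5, the alveolar factor, 25.1 to 36.5 CPM and then 5.69 and 21.2 CPM (adjusted p = 0.338). The ages did not overlap in these 4 genes, a separation that 21.6% of all genes tested had above and 32.8% below. Of 19 tested genes of hormone-sensing identity 0 were called (median 0.07). Gata3, a luminal master factor, read 293, 332 and 367 CPM and then 591 and 617 CPM (adjusted p = 0.361), whereas Foxa1 and Prlr overlapped between the ages.

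In the keratin and luminal structure list 1 of 20 genes was called higher and 1 lower (median 0.34). Krt23, a keratin of simple epithelia, rose from 123, 40.8 and 44.6 CPM to 450.1 and 589.6 CPM (7.99-fold, adjusted p = 0.0488). Cldn8, a claudin of tight junctions, fell from 165, 158 and 90.2 CPM to 9.31 and 22.7 CPM (8.07-fold lower, adjusted p = 0.046). Krt8, Krt18 and Krt19, the main luminal keratins, overlapped between the ages.

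Of 18 tested genes of the oestrogen and progesterone response 1 was called lower and 0 higher (median -0.44). Cxcl12, a chemokine, fell from 123, 191 and 257 CPM to 27.3 and 14.4 CPM (8.45-fold lower, adjusted p = 0.0288). Areg (amphiregulin) stood at 396, 262 and 502 CPM at 4 weeks and at 980.3 and 1557 CPM at 6 weeks, a 3.50-fold difference that did not pass the test (adjusted p = 0.099, and 0.016 without the library that stood apart). Its ages did not overlap. Esr1, the oestrogen receptor, read 5.35, 18.1 and 19.1 CPM and then 18.4 and 9.45 CPM, and Pgr, the progesterone receptor, 9.57, 45.3 and 29.5 CPM and then 154 and 33.5 CPM. Both overlapped, with replicate 1 of 6 weeks alone above the younger range in Pgr.

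Of 15 tested ErbB receptors and ligands 0 were called (median 0.13). Without the library that stood apart 4 were called higher and 0 lower, the ligands Areg, Ereg and Btc and the shedding protease Adam17. That fit called 6.4% of all genes higher and 8.79% lower. Ereg read 1.02, 2.57 and 3.22 CPM and then 19.5 and 14.9 CPM, so that both older libraries were above the younger. In wild-type basal cells Areg rose from 55.7, 43.0 and 61.8 CPM to 175, 385 and 315 CPM (adjusted p = 0.00503).

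The lists of other signals had 0 calls with the 10 libraries. Their medians were 0.00 for prolactin signalling (16 genes), -0.29 for the GH and IGF axis (15), -0.22 for FGF (13), -0.27 for Notch (18), -0.37 for Wnt (25) and -0.91 for TGF-beta and BMP (25). Hes1, a target of Notch, read 1075, 753 and 737 CPM and then 231 and 223 CPM (adjusted p = 0.0585, and 0.0167 without the library that stood apart). Its receptor Notch1 differed the other way, at 42.2, 102 and 72.5 CPM and 181 and 217 CPM (adjusted p = 0.168, and 0.0333 without it). Wnt4, which acts downstream of progesterone, read 70.9, 89.6 and 92.3 CPM and then 37.3 and 13.4 CPM (adjusted p = 0.114). The growth hormone receptor Ghr read 41.1, 35.1 and 29.1 CPM and then 6.38 and 14.1 CPM (adjusted p = 0.114). The ages overlapped in none of these 4 genes, and 21.6% of all genes tested lay wholly above and 32.8% wholly below. In the Notch list 5 genes lay above and 7 below of 18, in the Wnt list 2 and 6 of 25, and in the GH and IGF list 2 and 5 of 15. Axin2, a key member of the Wnt list, overlapped between the ages.

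Defence genes gave few calls. Of 29 tested interferon-stimulated genes 1 was called lower and 0 higher (median -0.32). This was Psmb8, of the immunoproteasome, which fell from 49.7, 68.8 and 61.9 CPM to 14.2 and 12.3 CPM (4.21-fold lower, adjusted p = 0.041). Its ages did not overlap. Cd14 was the 1 call in the list of mucosal defence (24 genes, median -0.63) and in that of myeloid markers (14, -1.49). MHC class II genes had 0 calls (7, -1.05).

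Stress and clock lists had 0 calls as well, with medians of 0.19 for heat shock (24 genes), -0.10 for glycolysis and hypoxia (23), -0.07 for glucocorticoid response (17) and 0.65 for the circadian clock (15). Sgk1, a kinase induced by glucocorticoids, read 362, 184 and 178 CPM and then 795 and 463 CPM (adjusted p = 0.104). Markers of basal (20 genes), fibroblast (16), endothelial (17), lymphoid (6), adipocyte (8), Schwann (9) and skeletal muscle cells (8) had 0 calls. Their medians were -0.43, -2.63, -2.23, -0.83, -0.10, -0.50 and 1.98, and 0 red cell markers passed the filter.

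**Figure D3:**
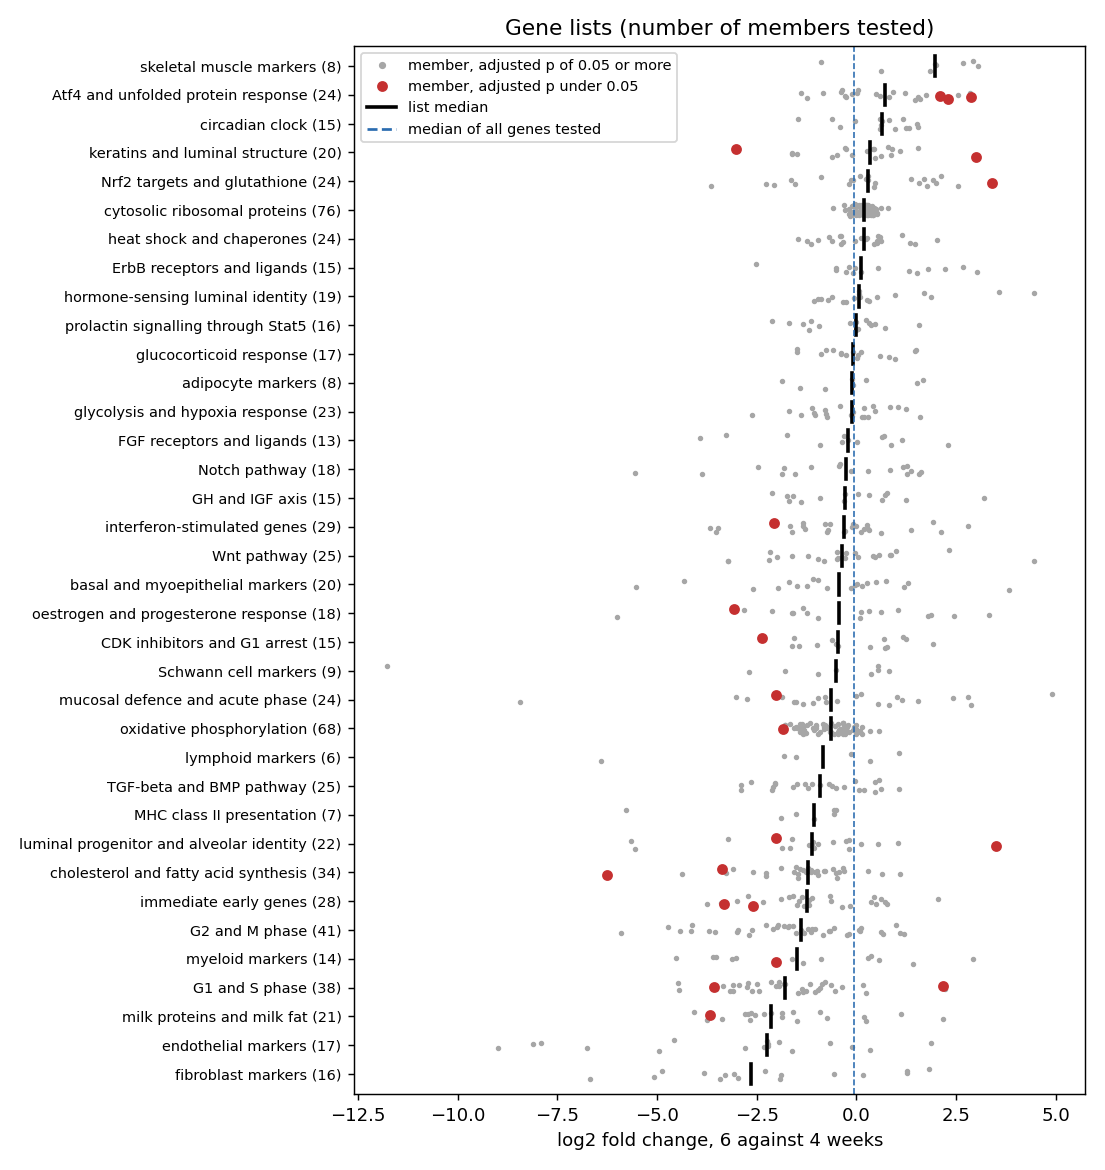
Log2 fold change of 6 against 4 weeks (x axis) for each tested member of each gene list in wild-type luminal cells, with lists ordered by median and the number tested in brackets. Red points passed the test, black bars are medians, and the dashed line is the median of all genes tested (-0.07). The medians run from -2.63 for fibroblast markers to 1.98 for skeletal muscle markers.

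The age differences were then set beside those of the other cells. Between 6 and 4 weeks 0 of 11355 genes (0%) were called in Cdkn1b-/- luminal cells by edgeR (819 at an unadjusted p under 0.05), where the library that stood apart is 1 of the 2 older ones. Of the genes called in wild-type luminal cells, 50 of the 86 higher ones had a positive value there (43.0% of all genes did) and 68 of the 124 lower ones a negative value (57.0% of all did). The wild-type basal cells had 606 genes higher and 714 lower, and in them 77 of the 86 had a positive value (49.8% of all genes did) and 118 of the 124 a negative one (50.0% of all did). Wild-type libraries of 6 weeks, basal and luminal, had 12.4 to 33.1% of all their reads outside genes, and Cdkn1b-/- libraries of 6 weeks 12.2 to 16.5%. Of uniquely placed reads alone the shares were 22.7 to 57.1% and 21.2 to 40.7%. The 40.7% belonged to the library that stood apart, beside 39.7% in replicate 2 of the wild-type luminal group. The part of this in the shared direction was not tested.

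By edgeR's interaction tests 0 of 12572 genes (0%) differed in age effect between luminal and basal wild-type cells and 0 of 11355 (0%) between wild-type and Cdkn1b-/- luminal cells, with 1351 and 1798 genes at an unadjusted p under 0.05. DESeq2 called 348 and 816. For Akr1b8, Nqo1 and Trib3 the adjusted p of the difference between genotypes was 0.0711 for each. The age effects above were therefore not shown by the main test to be particular to luminal cells or to the wild type.

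**Figure D4:**
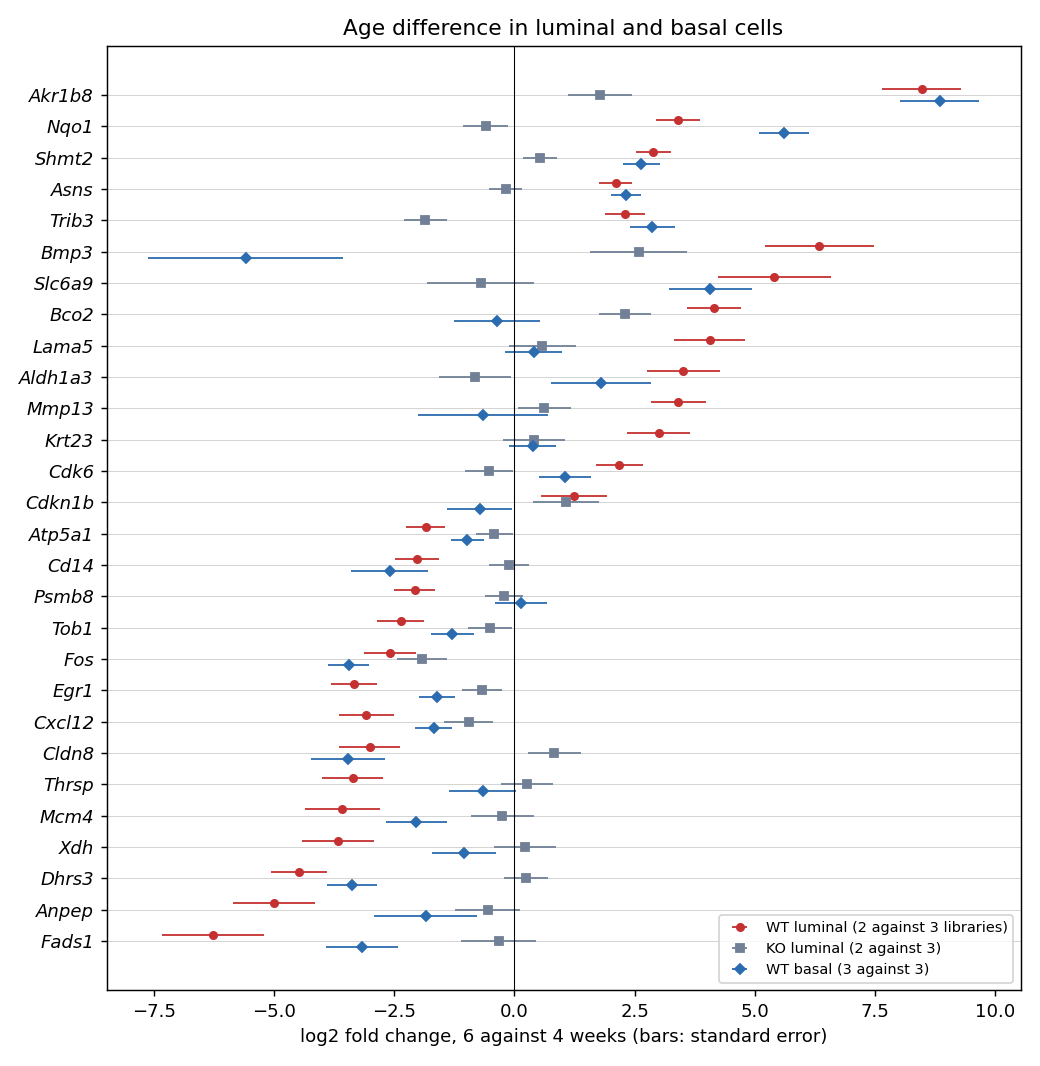
Log2 fold change of 6 against 4 weeks (x axis) with its standard error (bars) for genes of the text in wild-type luminal (red), Cdkn1b-/- luminal (grey) and wild-type basal cells (blue). Akr1b8, Nqo1, Shmt2, Asns and Trib3 lie right of 0 in both wild-type cell types, and the grey points of Nqo1, Asns and Trib3 lie left of 0.

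Luminal cells of wild-type rats of 9 weeks were sorted with other markers into mature luminal cells and Cd49b+ and PNA+ luminal progenitors (2 libraries each), so their levels are set beside the younger ones without a test. In these 6 libraries Akr1b8 stood at 1.42 to 11.2 CPM, Nqo1 at 5.37 to 27.7 CPM, Aldh1a3 at 1.97 to 16.8 CPM and Mmp13 at 0.425 to 8.64 CPM, all below both libraries of 6 weeks. Egr1 stood at 2276 to 3676 CPM, Fos at 7391 to 9164 CPM, Fads1 at 278 to 739 CPM, Dhrs3 at 77.5 to 132 CPM, Xdh at 528 to 855 CPM and Lalba at 3125 to 12609 CPM, all above both. These 10 genes were picked after their values were seen. The share of called genes with such levels at 9 weeks is not given here, so the 10 describe themselves only.

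**Figure D5:**
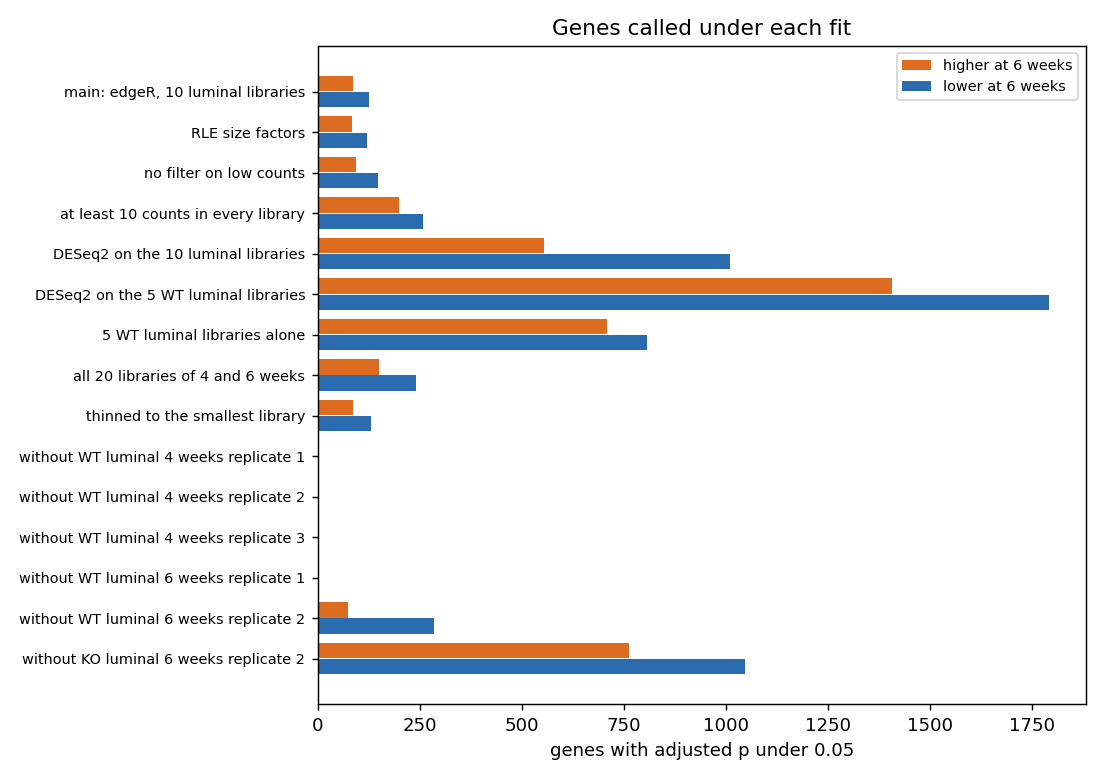
Number of genes with an adjusted p under 0.05 (x axis, from 0) that were higher (orange) or lower (blue) at 6 weeks in wild-type luminal cells under each fit. The fit of the text called 86 and 124, the 5 wild-type luminal libraries alone 708 and 806, and each fit without 1 library of 4 weeks or without replicate 1 of 6 weeks called 0.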

How the data were processed

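RNA was measured in luminal and basal mammary cells of ACI rats by RNA-seq (SMARTer v4 low-input kit, single-end reads). The authors aligned the reads to rn6 with STAR (version 2.5.1b, per the submitters' processing notes) and counted them per gene with HTSeq. The deposited files hold these raw counts, 17356 gene rows and 5 rows naming no gene, which were left out of library sizes and tests. The strand setting is not given in the sources used here.

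Genes were tested in R 4.3.3 with edgeR 4.0.16 (filterByExpr, TMM, quasi-likelihood test, Benjamini-Hochberg over all genes tested, threshold 0.05), with the group (genotype by age) as the model over the 10 luminal libraries of 4 and 6 weeks. Interactions with basal cells used the 20 libraries of these ages. The alternatives included DESeq2 1.42.0. The test was checked on simulated counts. Levels are CPM with TMM factors over 26 libraries, and log2 levels add 0.5 CPM. The study counts animals in these groups, but the labels do not tie each library to an animal, so part of the spread that p-values measure may be technical. No replicate pair agreed within counting noise.

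Named genes were up to 12 per direction by size among called genes with a mean log2 CPM above 2 and ages that do not overlap, the key and called members of 37 gene lists, and Cdkn1b. The members and lists were chosen with earlier results of these data known. Promoters are RefSeq sequences of GRCr8, matched by symbol for 8674 of the genes tested. Results for some items are not reported here.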

Additional observations from a re-analysis of the deposited data

Results flagged for a closer look

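Among the genes named in the text, 14 had both 6-week wild-type luminal libraries on one side of the 4-week ones and every 6-week library of wild-type basal cells or of Cdkn1b-/- luminal cells on the opposite side of theirs. The share of all genes with this pattern was not counted, so the 14 are descriptions. Separation in wild-type luminal cells alone held for 21.6% of all genes tested above and 32.8% below, and part of the named genes was chosen by it. In none of the 14 did edgeR's interaction test pass the threshold. Bmp3 rose in wild-type luminal cells and was at 0 in all basal libraries of 6 weeks, a luminal minus basal difference of 11.87 on the log2 scale (adjusted p = 0.0784), whose fitted size depends on the prior count. Between wild-type and Cdkn1b-/- luminal cells the difference was 4.15 for Trib3 (adjusted p = 0.0711), whose Cdkn1b-/- libraries read 41.3, 86.2 and 47.7 CPM at 4 weeks and 19.2 and 12.2 CPM at 6 weeks. It was -8.57 for Atp2a3 (adjusted p = 0.0857), which read 2.80, 13.5 and 26.9 CPM and then 30.5 and 70.7 CPM in the Cdkn1b-/- libraries. For Pex11g it was -4.58 (adjusted p = 0.116), with 8.19, 9.94 and 9.43 CPM and then 10.5 and 12.8 CPM. The luminal minus basal difference was -3.57 for Fasn and -4.12 for Gstm1 (adjusted p = 0.135 and 0.135), which were lower at 6 weeks in luminal and higher in basal cells, and 3.02 for Sgk1 (adjusted p = 0.0885), which went the opposite way. In 7 further genes the wild-type luminal libraries were higher and the Cdkn1b-/- luminal libraries lower at 6 weeks. The wild-type minus Cdkn1b-/- difference was 2.16 for Cebpg, 3.17 for Eif4ebp1, 3.20 for Fosl1, 3.89 for Gclm, 3.54 for Hmox1, 4.38 for Mthfd2 and 4.20 for Slc7a11 (adjusted p = 0.107, 0.0765, 0.0934, 0.209, 0.0818, 0.22 and 0.245). One of the 2 Cdkn1b-/- luminal libraries of 6 weeks is the library that stood apart, and the other carries 5.3 weeks in its title.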

How the results depend on the processing

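The 210 calls (86 higher, 124 lower) stayed within 1.5 times under RLE size factors, no filter, a fold threshold and thinning to the smallest library. At least 10 counts in every library gave 456 (199 and 257), DESeq2 1563 (554 and 1009), DESeq2 on the 5 libraries 3199 (1407 and 1792), edgeR on those 5 alone 1514 (708 and 806), and all 20 libraries 390 (149 and 241). Leaving out 1 wild-type luminal library gave 0 to 357 calls (0 to 73 higher, 0 to 284 lower). Chosen after seeing the data, the fit without replicate 2 of the Cdkn1b-/- luminal cells of 6 weeks gave 1811 (763 and 1048), and with 1 wild-type library left out too 561 to 2964 (182 to 1083 and 379 to 1881). The cause was not tested. Of 62 named genes called, 62 stayed called without that library and 52 without it and replicate 1 of 6 weeks, where Fcgbp, Atp5a1, Cd14, Mcm4 and Xdh were among those lost.

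The luminal against basal interaction, 0 calls, became 12 with RLE, 11 without the filter, 348 with DESeq2 and 0 to 49 leaving out 1 library (49 without replicate 2 of 6 weeks). With the title start as a replicate block it was 8, and the pairing is not established, since luminal and basal libraries of 1 title start correlated at 0.06 to 0.34. The wild-type against Cdkn1b-/- interaction, 0 calls, became 63 without the filter, 816 with DESeq2 and 0 to 3731 leaving out 1 library. The extremes were 3731 without replicate 1, 112 without replicate 2 of the Cdkn1b-/- cells of 6 weeks, and 153 without replicate 2 of the wild-type cells of 6 weeks.

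Genes near 0 changed sign. Atf4 was -0.013 with all 20 libraries and -0.11 to 0.14 leaving out libraries, Esr1 -0.033 when thinned and -0.53 to 0.46, and Foxa1 -0.90 to 0.40. List medians near 0 also changed sign, as for ribosomal proteins (-0.35 to 0.52) and keratins (-0.63 to 0.35), while those of the Atf4, immediate early, G1 and S phase, oxidative phosphorylation, lipid synthesis and milk lists kept theirs under all 19 alternatives.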

Other observations

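The genes named in this section were chosen after their values were seen, and their values are descriptions. Cars, the cysteinyl-tRNA synthetase, rose in wild-type luminal cells from 54.0, 68.7 and 77.7 CPM at 4 weeks to 589 and 398 CPM at 6 weeks (7.97-fold, edgeR adjusted p = 0.0226), and Eif4ebp1, a brake on translation, from 101, 64.0 and 70.1 CPM to 408 and 309 CPM (4.92-fold, adjusted p = 0.0262). Cebpg, a partner of Atf4, rose 3.42-fold and Gtpbp2 4.43-fold (adjusted p = 0.0313 and 0.0402). Plau, the urokinase that activates plasminogen, rose from 915, 538 and 849.9 CPM to 8658 and 5131 CPM (9.68-fold, adjusted p = 0.0488), and in Cdkn1b-/- luminal cells it read 324, 1218 and 616 CPM and then 794 and 143 CPM.

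Idh2, an isocitrate dehydrogenase, fell from 114, 127 and 132 CPM to 9.75 and 29.9 CPM, Got2, an aspartate aminotransferase, from 177, 228 and 212 CPM to 36.9 and 31.5 CPM, and Bckdhb, which degrades branched-chain amino acids, from 202, 174 and 171 CPM to 18.2 and 34.7 CPM (adjusted p = 0.0281, 0.0224 and 0.0224). Suclg1, Suclg2, Acat1, Hadh and Aldh6a1 were called lower too, 4.45-, 3.33-, 3.87-, 5.49- and 6.07-fold. Myd88, the adaptor of Toll-like receptors, fell from 249.9, 198 and 229 CPM to 44.0 and 77.0 CPM (adjusted p = 0.0409). Dscc1 and Tcf19, of DNA replication and the cell cycle, read 5.50 to 13.9 and 7.89 to 11.4 CPM at 4 weeks and 0 in both libraries of 6 weeks (adjusted p = 0.0219 and 0.0219).

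Further genes of salivary glands were distributed like Amy1a, with Prpmp5 at 748 and 1.32 CPM, Smr3a at 325 and 0.513 CPM and Dnase1 at 523 and 1.90 CPM in replicates 1 and 2 of 6 weeks and at most 0.69 CPM at 4 weeks. The granule genes Mpo and Elane of myeloid precursors read 10.4 and 31.0 CPM and 7.59 and 36.1 CPM in the same libraries, at most 0.0524 CPM at 4 weeks, and 734 and 998 CPM in replicate 3 of the wild-type basal cells of 6 weeks.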
